A study of Sus scrofa with 12 samples.

Results

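Genes of autophagy and mitophagy were followed in RNA from the striatum of newborn piglets. The members were chosen by name from the authors' gene table, and all 39 names were found, each with 1 gene ID, among the 25880 gene IDs of the count table. All 39 had counts in every library and were among the 14004 genes tested. The DHCA group (n = 6) was anaesthetised with 4% isoflurane, connected to a heart-lung machine (cardiopulmonary bypass) by sternotomy and cooled to 18 °C. Circulation was then stopped for 30 min (deep hypothermic circulatory arrest, DHCA), and after rewarming to 37 °C with bypass restarted the piglets had 6 h of recovery. The sham group (n = 6) was kept under 4% isoflurane, and the labels give no surgery, bypass or recovery time for it. The comparison therefore asks what differed 6 h after the whole procedure, in which surgery, bypass, cooling and arrest cannot be told apart.

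Autophagy is the route by which a cell wraps part of its own cytoplasm in a membrane sac and delivers it to the lysosome for breakdown. The ULK1 kinase complex starts the process, and a lipid kinase complex around BECN1 marks the membrane. A pair of ubiquitin-like conjugation systems then attaches small proteins of the ATG8 family (LC3 and GABARAP proteins) to the membrane, where receptors bring in the cargo. Mitophagy is the same route applied to damaged mitochondria. In neurons, which do not divide, autophagy clears protein aggregates and old organelles, and its flow is regulated to a large extent on proteins, which transcript counts do not record.

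Library totals ran from 5434652 to 9997400 counts in DHCA and from 1377809 to 12933536 in sham. Sham 1 and Sham 5 were the shallowest, with 2515816 and 1377809 counts, and had the smallest shares of mitochondrial counts, 4.01% and 7.30%. In Sham 4, 14 markers of spiny projection neurons, the main neuron type of the striatum, made up 0.0415% of counts, against 0.324% to 0.866% in the other 11 libraries. Markers of cortical glutamatergic neurons reached 0.116% there, against 0.000573% to 0.00305% elsewhere, so Sham 4 went against its tissue label. With Sham 1, Sham 4 or Sham 5 left out 1 at a time, 0 members were called, where 36, 10 and 11 of all tested genes were. With these libraries left out together, 0 members were called, but only 1 of 14363 tested genes was, so that count says little about the members. In bulk RNA, fewer cells of a type and less RNA per cell cannot be told apart.

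No autophagy or mitophagy gene passed the test after DHCA. Of the 39 members 0 were called higher and 0 lower by edgeR's quasi-likelihood test at an adjusted p under 0.05, where 0.186% of all tested genes (26 of 14004) were called. At an unadjusted p under 0.05 the count was also 0 of 39, where 7.9% of all tested genes lay. The groups overlapped in every member, and they did not overlap in 0.993% of all tested genes. DESeq2 also called 0 members, where 1.1% of the genes it gave an adjusted p were called. Limma-voom called 0 members, where 27 of 14004 tested genes were called. Its form with sample quality weights also called 0 members, where 1.48% of all tested genes were called. The smallest adjusted p among the members was 0.753, for ATG13.

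In simulated data the steps recovered 29.85% of genes changed 2-fold, so the lack of called members alone does not exclude such changes. The intervals bound how large a change these libraries allow. The median log2 fold change of the members was 0.096, against -0.003 over all tested genes, with 24 positive and 15 negative estimates (49.5% of all tested genes had a positive one). The estimates ran from -0.58 for TFEB to 0.45 for LAMP2. The median size of a member's estimate was 0.14, against 0.21 over all tested genes. For 35 of the 39 members the 95% interval, which is per gene and not adjusted, lay wholly inside a 2-fold change in either direction (log2 of -1 to 1), as it did for 71.5% of all tested genes. For 16 members it lay inside a 1.5-fold change, as for 26.8% of all tested genes. The members had more counts than most genes, with a median of 74.1 against 23.8 CPM (counts scaled to the library total). Their median SE was 0.21, against 0.25 over all tested genes. Of 123 other autophagy and lysosome genes, 89.4% had an interval inside a 2-fold change and 45.5% inside a 1.5-fold change. The part of count depth in these shares was not tested. The 4 members whose interval passed a 2-fold change were ATG4D (-1.45 to 0.35), TFEB (-1.38 to 0.22), LAMP2 (-0.29 to 1.20) and BNIP3L (-0.44 to 1.07).

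**Figure D1:**
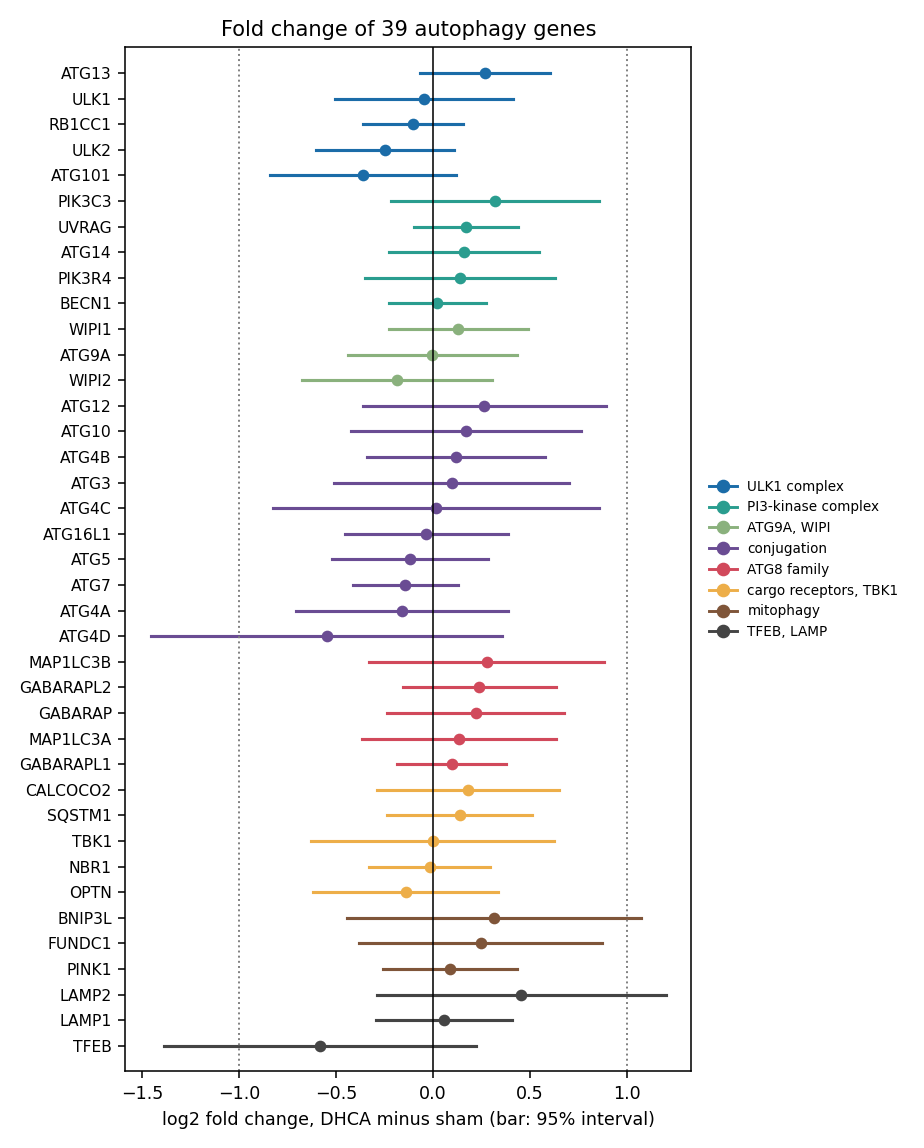
Log2 fold change, DHCA minus sham, of each of the 39 members (point) with its 95% interval (bar), coloured by role; dotted lines mark a 2-fold change. All 39 intervals include 0, and those of ATG4D, TFEB, LAMP2 and BNIP3L cross a dotted line.

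The ULK1 complex, a kinase with its scaffold proteins that starts autophagy, had 5 members. ATG13, a regulatory subunit (ENSSSCG00000013257, chromosome 2, 15856860 to 15916399, Sscrofa11.1), had a lowest, median and highest value of 75.2, 89.7 and 118 CPM in DHCA, against 60.8, 82.7 and 87.8 CPM in sham. CPM is a count divided by the scaled total of its library. The highest DHCA value was that of DHCA 3, and 4 DHCA libraries lay above all sham libraries (log2 fold change of 0.27 with an SE of 0.16, adjusted p = 0.753). The lowest sham values were those of Sham 4 (60.8 CPM) and Sham 1 (65.1 CPM). With 1 library left out at a time, the log2 fold change of ATG13 ran from 0.17 to 0.32. ATG101, which stabilises ATG13 (ENSSSCG00000033687, chromosome 5, 17417819 to 17426528), had 14.55, 17.02 and 21.3 CPM in DHCA, against 16.3, 19.1 and 39.2 CPM in sham (log2 fold change of -0.36 with an SE of 0.22, adjusted p = 0.765). The value of 39.2 CPM was that of Sham 1, and without Sham 1 and Sham 5 the log2 fold change was -0.04. The kinases ULK1 and ULK2 and the scaffold RB1CC1, also called FIP200, had log2 fold changes between -0.25 and -0.04.

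The lipid kinase complex marks the forming membrane with a phosphoinositide. PIK3C3, its catalytic subunit (ENSSSCG00000003749, chromosome 6, 125890532 to 126043141), had 42.5, 61.6 and 88.2 CPM in DHCA, against 22.9, 49.7 and 72.9 CPM in sham (log2 fold change of 0.32 with an SE of 0.25, adjusted p = 0.806). The lowest of these was that of Sham 1, and the log2 fold change was 0.17 without that library and also 0.17 without DHCA 3. UVRAG, a BECN1 partner (ENSSSCG00000028979, chromosome 9, 10088783 to 10370855), was among the least variable members, with 34.1, 36.5 and 41.1 CPM in DHCA, against 29.5, 32.2 and 36.7 CPM in sham (log2 fold change of 0.17 with an SE of 0.13, adjusted p = 0.795). BECN1, the scaffold of the complex, had 78.9, 83.2 and 90.3 CPM in DHCA, against 77.9, 83.1 and 87.0 CPM in sham. Its interval ran from -0.23 to 0.27 on the log2 scale, so a change of 1.5-fold in either direction lay outside it. ATG14, which directs the complex to the forming sac, and PIK3R4, its regulatory subunit, had log2 fold changes of 0.16 and 0.14. ATG14 shares 53.4% of its exon bases with the opposite-strand gene FBXO34, and the counting used no strand, so its level is uncertain.

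Membrane supply was represented by ATG9A, a lipid scramblase carried on vesicles, and by the phosphoinositide-binding proteins WIPI1 and WIPI2. WIPI2 (ENSSSCG00000007580, chromosome 3, 3800076 to 3834249) had 55.0, 85.7 and 110 CPM in DHCA, against 62.9, 94.6 and 142 CPM in sham (log2 fold change of -0.19 with an SE of 0.23). WIPI1 (ENSSSCG00000017260, chromosome 12, 11715274 to 11752377) had 31.3, 38.2 and 53.9 CPM in DHCA, against 29.9, 37.1 and 42.3 CPM in sham (log2 fold change of 0.13 with an SE of 0.17). ATG9A had a log2 fold change of -0.004. The groups overlapped in each of the 3 genes. Without Sham 1 the log2 fold change of WIPI2 was -0.05, and without DHCA 3 that of WIPI1 was 0.01.

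The conjugation enzymes had 10 members. ATG7, which activates both ubiquitin-like systems (ENSSSCG00000011575, chromosome 13, 67417938 to 67699655), was among the least variable members, with a biological coefficient of variation of 16.7%, beside 16.9% for UVRAG and for BECN1. It had 31.8, 32.9 and 35.7 CPM in DHCA, against 32.1, 37.2 and 41.3 CPM in sham (log2 fold change of -0.14 with an SE of 0.13, adjusted p = 0.816). Opposite-strand VGLL4 shares 23.2% of the exon bases of ATG7. ATG4D, one of the proteases that trim and release ATG8 proteins (ENSSSCG00000013645, chromosome 2, 69320331 to 69328521), was among the most variable, with 48.2%, beside 46.8% for ATG4C. It had 3.92, 5.20 and 7.26 CPM in DHCA, against 2.75, 6.05 and 21.7 CPM in sham (log2 fold change of -0.55 with an SE of 0.42, adjusted p = 0.804). The value of 21.7 CPM was that of Sham 1, and without that library the log2 fold change was -0.01 (SE 0.30). ATG4D shares 47.6% of its exon bases with the opposite-strand gene KRI1. The other 8, ATG3, ATG4A, ATG4B, ATG4C, ATG5, ATG10, ATG12 and ATG16L1, had log2 fold changes between -0.16 and 0.27 and adjusted p of at least 0.832.

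The 5 ATG8 genes each had a positive estimate, and none passed the test. The sign was negative for GABARAP (-0.06) and GABARAPL2 (-0.01) without Sham 1, Sham 4 and Sham 5, and for MAP1LC3A (-0.06) without DHCA 3 and Sham 2. MAP1LC3B (ENSSSCG00000002655, chromosome 6, 1917493 to 1941079), which encodes the LC3 protein most used as a marker of autophagic membranes, had 64.0, 79.6 and 108 CPM in DHCA, against 21.3, 72.2 and 93.6 CPM in sham (log2 fold change of 0.28 with an SE of 0.28, adjusted p = 0.825). Sham 1 with 21.3 CPM and Sham 5 with 49.9 CPM lay below all other libraries, and without both the log2 fold change was -0.01 (SE 0.17). With Sham 4 (90.8 CPM) left out as well, the estimate of MAP1LC3B was positive. Opposite-strand ZCCHC14 shares 30.0% of the exon bases of MAP1LC3B. MAP1LC3A (ENSSSCG00000007281, chromosome 17, 37957713 to 37959507) had 49.9, 91.4 and 115 CPM in DHCA, against 54.4, 75.5 and 114 CPM in sham (log2 fold change of 0.13 with an SE of 0.23, adjusted p = 0.893).

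The GABARAP branch of the family acts mainly at later steps, in closing the sac and fusing it with the lysosome. GABARAPL1 (ENSSSCG00000000645, chromosome 5, 61758137 to 61767601) had 218.5, 256 and 270.4 CPM in DHCA, against 201, 235 and 270.6 CPM in sham (log2 fold change of 0.10 with an SE of 0.13, adjusted p = 0.861). GABARAP (ENSSSCG00000017936, chromosome 12, 52590805 to 52598194) had 86.4, 95.3 and 132 CPM in DHCA, against 43.0, 88.4 and 122 CPM in sham (log2 fold change of 0.22 with an SE of 0.21, adjusted p = 0.823). The annotation lets same-strand PHF23 share 65.3% of the exon bases of GABARAP, so reads there may have gone uncounted. GABARAPL2 (ENSSSCG00000002707, chromosome 6, 12122057 to 12132991) had 58.3, 73.4 and 92.95 CPM in DHCA, against 41.9, 61.9 and 81.1 CPM in sham (log2 fold change of 0.24 with an SE of 0.18, adjusted p = 0.804). In GABARAP, GABARAPL2 and MAP1LC3B alike, DHCA 3 was the highest of its group, Sham 2 the highest of sham and Sham 1 the lowest of all 12 libraries.

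**Figure D2:**
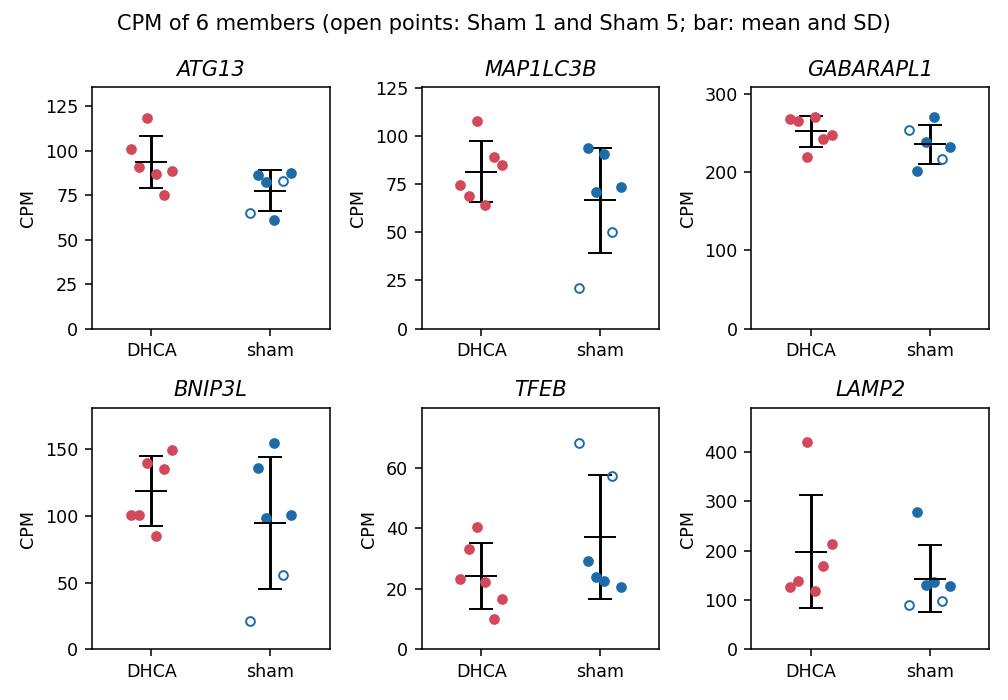
CPM of ATG13, MAP1LC3B, GABARAPL1, BNIP3L, TFEB and LAMP2 in the 6 DHCA and 6 sham libraries (points), with mean and SD (bars); open points are Sham 1 and Sham 5. The groups overlap in all 6 genes, and the open points are the lowest sham values of MAP1LC3B, BNIP3L and LAMP2 and the highest of TFEB.

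Cargo receptors bind ubiquitin-tagged cargo and ATG8 proteins at once. SQSTM1, the classical receptor for protein aggregates (ENSSSCG00000014016, chromosome 2, 78752771 to 78784256), had 115.2, 149 and 188 CPM in DHCA, against 115.7, 124 and 173 CPM in sham (log2 fold change of 0.14 with an SE of 0.17, adjusted p = 0.847). CALCOCO2, a receptor for bacteria and mitochondria (ENSSSCG00000017543, chromosome 12, 25049346 to 25081023), had 50.1, 62.7 and 114 CPM in DHCA, against 53.5, 58.2 and 83.1 CPM in sham (log2 fold change of 0.18 with an SE of 0.22, adjusted p = 0.842). Its highest DHCA value was again that of DHCA 3, and without that library the log2 fold change was -0.02 (SE 0.20). NBR1, OPTN and the kinase TBK1, which phosphorylates such receptors, had log2 fold changes of -0.02, -0.14 and -0.001. OPTN ranged from 73.4 to 98.8 CPM in DHCA. In sham it was at 176 CPM in Sham 1 and between 67.3 and 91.2 CPM elsewhere, and without Sham 1 its log2 fold change was 0.13 (SE 0.12).

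The mitophagy genes were followed in both the ubiquitin route and the receptor route. BNIP3L, a receptor on the outer mitochondrial membrane that is known to respond to hypoxia (ENSSSCG00000009658, chromosome 14, 10318696 to 10345754), had 84.8, 118 and 149 CPM in DHCA, against 21.3, 99.6 and 155 CPM in sham (log2 fold change of 0.31 with an SE of 0.35, adjusted p = 0.834). Sham 1 had 21.3 CPM and Sham 5 had 55.9 CPM, below all other libraries, and without both the log2 fold change was -0.05 (SE 0.20). The sham value of 155 CPM was that of Sham 4, and with Sham 4 left out as well the estimate was positive. FUNDC1, another outer membrane receptor (ENSSSCG00000012258, chromosome X, 39726079 to 39737626), had 25.6, 31.8 and 57.0 CPM in DHCA, against 10.9, 29.9 and 44.1 CPM in sham (log2 fold change of 0.25 with an SE of 0.29, adjusted p = 0.839). Without Sham 1 and Sham 5 its estimate was -0.003 (SE 0.23), and with Sham 4 (41.1 CPM) left out as well it was positive. PINK1, the kinase that flags damaged mitochondria with phosphorylated ubiquitin, had 220, 262 and 313 CPM in DHCA, against 192, 272 and 290.3 CPM in sham, with an interval from -0.26 to 0.43.

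At the lysosomal end, the transcription factor TFEB and the membrane proteins LAMP1 and LAMP2 were measured. TFEB, which switches on lysosomal and autophagy genes (ENSSSCG00000001621, chromosome 7, 36870242 to 36921057), had 9.85, 22.7 and 40.4 CPM in DHCA, against 20.6, 26.6 and 68.2 CPM in sham (log2 fold change of -0.58 with an SE of 0.37, adjusted p = 0.769). Sham 1 with 68.2 CPM and Sham 5 with 57.2 CPM lay above all other libraries, and without both the log2 fold change was 0.003 (SE 0.32). With Sham 4 (22.6 CPM) left out as well, the estimate of TFEB was negative. LAMP2, which is needed for fusion and for chaperone-mediated autophagy (ENSSSCG00000012604, chromosome X, 98582003 to 98624088), had 118, 153 and 420 CPM in DHCA, against 89.2, 129 and 278 CPM in sham (log2 fold change of 0.45 with an SE of 0.35, adjusted p = 0.802). The value of 420 CPM was that of DHCA 3 and that of 278 CPM was that of Sham 2. Without DHCA 3 the log2 fold change was 0.07 (SE 0.29), and without Sham 2 it was 0.77 (SE 0.32, adjusted p = 0.36). LAMP1 had a log2 fold change of 0.06 (SE 0.16).

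Several members stood apart in single libraries. Sham 1 was the lowest of the 12 libraries for 17 members and the highest for 8, which is 64.1% of the members, and it was the lowest or highest for 58.5% of all tested genes. It was lowest for BNIP3L, MAP1LC3B, GABARAP, GABARAPL2, FUNDC1 and TBK1 and highest for TFEB, ATG4D, ATG101, OPTN and WIPI2. Sham 1 also had the smallest mitochondrial share (4.01%) and the lowest median correlation with the other libraries (0.859), and their part in these values was not tested. Sham 3, Sham 6 and DHCA 4 were at an extreme for 0 members.

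DHCA 3 was the highest of all 12 libraries for 16 of the 39 members (41.0%), and for 14.2% of all tested genes. Its 39 members summed to 3838 CPM, against 3101 to 3406 CPM in the other DHCA libraries and 3063 to 3343 CPM in sham. In 13 of the 39 members (33.3%), DHCA 3 was the highest of DHCA and Sham 2 the highest of sham. The same held for 13.3% of all tested genes. LAMP2, ATG3, ATG4C, ATG12, MAP1LC3B and CALCOCO2 were among the 13 members. All 8 oligodendrocyte markers found (of 9 listed) had counts in every library, and they made up 0.47% to 6.01% of counts in DHCA and 1.02% to 3.22% in sham. DHCA 3 held the highest share of DHCA, 6.01%, and Sham 2 the highest of sham, 3.22%. Sham 5 had nearly as high a share, 3.19%, with LAMP2 at 98.5 CPM, and the part of these markers in the members' values was not tested. Without DHCA 3 and Sham 2, an alternative chosen after seeing the data, 0 members were called, where 21 of 14060 tested genes were. LAMP2 then had a log2 fold change of 0.38 (SE 0.20).

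**Figure D3:**
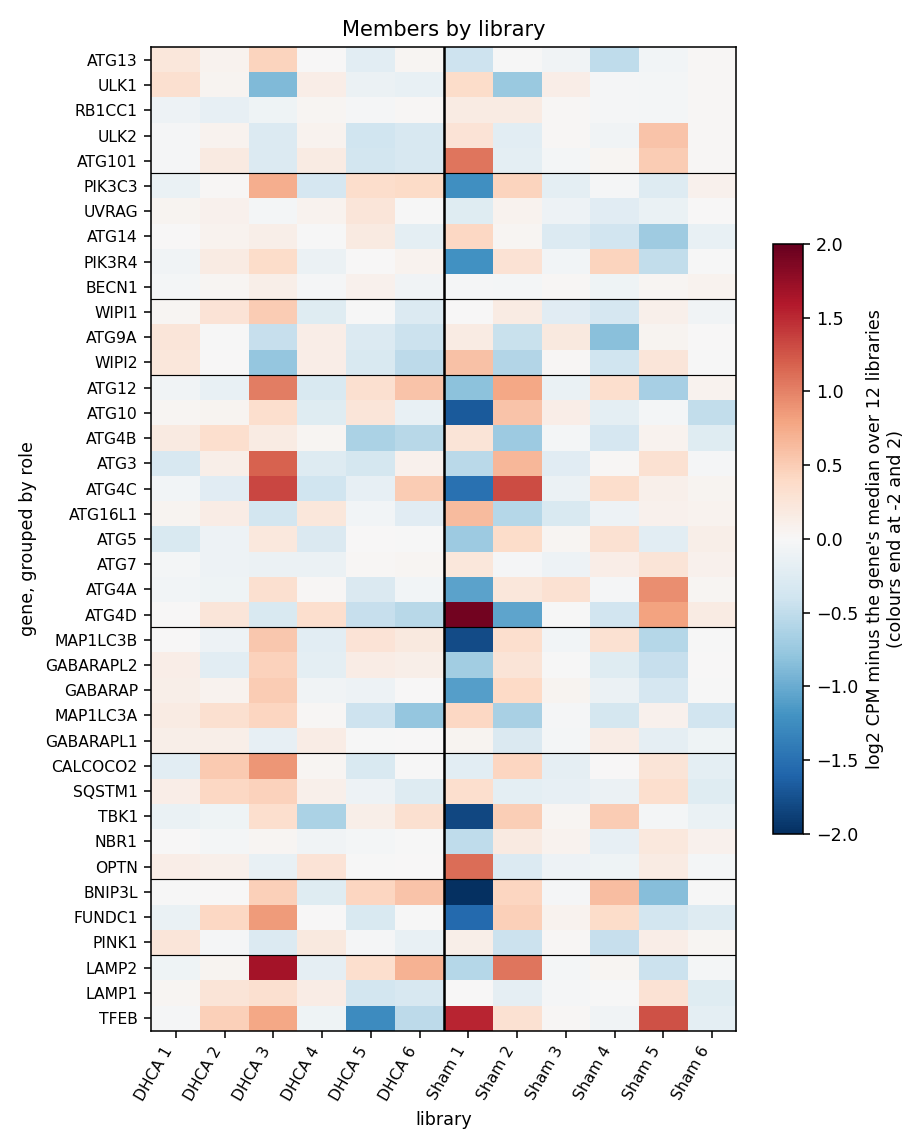
Log2 CPM of each member minus its median over the 12 libraries, with DHCA libraries left of the line and sham libraries right of it, and genes grouped by role. Sham 1 has deep colours in both directions (17 members lowest and 8 highest there), and DHCA 3 is the highest library for 16 members.

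Levels were compared between genes per kilobase of exon. GABARAPL1 was the most abundant member at 131 ± 10.2 CPM per kilobase in DHCA and 122 ± 13.0 in sham (SD, n = 6 each). It was followed by MAP1LC3A with 80.2 ± 23.4 in DHCA and 73.4 ± 19.9 in sham, and SQSTM1 with 64.1 ± 12.2 in DHCA and 58.4 ± 11.4 in sham. LAMP1, GABARAPL2 and PINK1 came next, all between 50.1 and 61.7 on average in either group, so their order within that range lay inside their spread. In sham, the highest value of MAP1LC3A, 105.3, passed the lowest of GABARAPL1, 104.4. These values depend on annotated exon length, which is 1079 bases for MAP1LC3A and 4006 for MAP1LC3B.

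The last 2 places per kilobase were held by ATG4A and ATG5, both of the conjugation systems. The place of ATG5 depends on its 9533 annotated exon bases. By mean CPM, 18.3 in DHCA and 19.65 in sham, ATG5 lay above ATG4A, ATG4C, ATG4D, ATG10 and ATG14. Opposite-strand PSMD10 and COL4A6 share 9.85% and 11% of the exon bases of ATG4A, so reads there may have gone uncounted. ATG4A had 0.993 ± 0.143 CPM per kilobase in DHCA and 1.13 ± 0.462 in sham, and ATG5, to which ATG12 is joined, had 1.92 ± 0.265 in DHCA and 2.06 ± 0.516 in sham. Other conjugation genes stood higher, with ATG3 at the percentile of 82.6 among all tested genes by level per kilobase and ATG4A at 8.04. Of the 39 members, 9 lay above the percentile of 90. The first 3 places and the last 2 held the same genes in both groups.

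**Figure D4:**
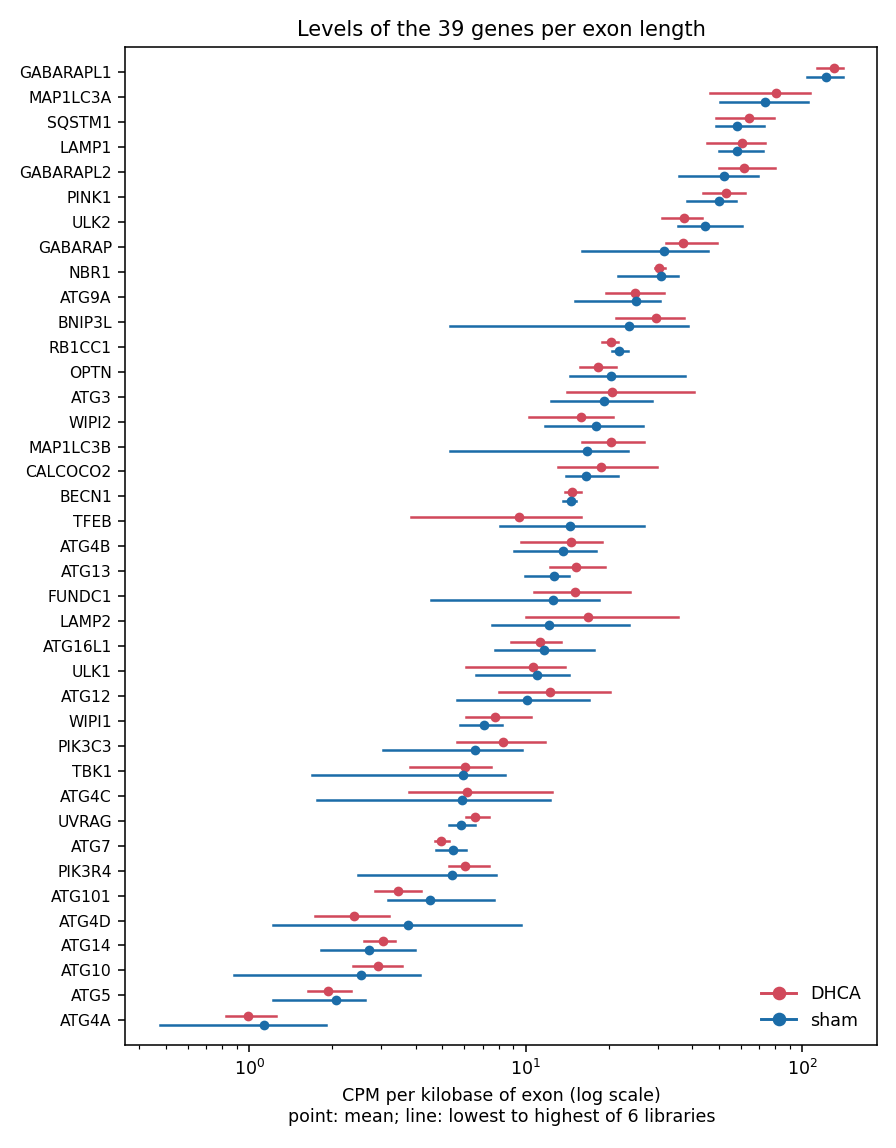
CPM per kilobase of exon (log axis) of the 39 members in DHCA and sham; points are means and lines run from the lowest to the highest of 6 libraries. GABARAPL1 is at the top with 131 in DHCA and 122 in sham, ATG4A is at the bottom with 0.993 in DHCA and 1.13 in sham, and the lines of both groups overlap for each gene.

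Other genes of the pathway were taken in 4 lists. Of 123 tested genes outside the members, edgeR called 0, DESeq2 0 and limma-voom 0. Over all genes they called 26 of 14004, 179 of 16346 and 27 of 14004. At an unadjusted p under 0.05 in edgeR, 3 of the 123 were higher in DHCA (3.43% of all tested genes were) and 3 were lower (4.47% of all tested genes were). Limma-voom with sample quality weights called 2, DDIT4 (log2 fold change of 0.92, adjusted p = 0.0299) and FIS1 (0.65, adjusted p = 0.0188), in a setting that called 1.48% of all tested genes. The median log2 fold change was 0.014 for 27 further core and fusion genes, 0.068 for 26 further receptors and mitophagy factors, 0.14 for 33 regulators around the kinases MTOR and AMPK, and 0.062 for 37 lysosomal genes.

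Among the regulators, DDIT4, a stress-induced inhibitor of MTOR signalling, had 32.8, 39.4 and 66.1 CPM in DHCA, against 22.2, 25.2 and 57.8 CPM in sham (edgeR log2 fold change 0.60, SE 0.26, adjusted p = 0.588). The sham value of 57.8 CPM was that of Sham 1, and without it the log2 fold change was 0.88 (adjusted p = 0.0767). SESN1, a sestrin that restrains MTOR complexes, had 51.7, 70.5 and 92.5 CPM in DHCA, against 38.6, 48.4 and 61.2 CPM in sham (0.48, SE 0.18, adjusted p = 0.488). DEPDC5, a subunit of an amino-acid-sensing brake on MTOR, had 22.9, 32.1 and 34.9 CPM in DHCA, against 32.8, 42.3 and 49.9 CPM in sham (-0.40, SE 0.16, adjusted p = 0.523).

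Of the lysosomal genes, GLA, which encodes alpha-galactosidase A, had the smallest p of the 4 lists. It had 9.21, 13.0 and 14.8 CPM in DHCA, against 6.20, 7.88 and 10.3 CPM in sham (log2 fold change of 0.63 with an SE of 0.18, adjusted p = 0.284). The lysosomal enzymes GUSB and CTSZ had log2 fold changes of -0.53 (SE 0.21, adjusted p = 0.51) and -0.81 (SE 0.34, adjusted p = 0.567). CTSZ rested on 233 counts over all libraries. GUSB was highest in Sham 4 (19.3 CPM), and without Sham 1, Sham 4 and Sham 5 its log2 fold change was -0.27. Of the core genes, AMBRA1, a regulator of BECN1, had 0.31 (SE 0.15), VMP1, a membrane protein of sac formation, 0.54 (SE 0.28), and VPS33A, a subunit of the fusion tether, -0.20 (SE 0.13). VMP1 was highest in DHCA 3 and Sham 2, as the 13 members above, and without DHCA 3 it had 0.30. The receptor for endoplasmic reticulum CALCOCO1 had -0.70 (SE 0.38), the mitochondrial fission factor FIS1 0.39 (SE 0.23) and the ferritin receptor NCOA4 0.29 (SE 0.20). CALCOCO1 was at 457.5 CPM in Sham 1, against a sham median of 138 CPM. Leaving out Sham 1 moved CALCOCO1 by more than 1 SE, and FIS1 and NCOA4 by less. Without Sham 1 the log2 fold change was -0.18 for CALCOCO1, 0.62 for FIS1 and 0.17 for NCOA4.

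The authors' deposited table gave 0 of the 39 members an adjusted p under 0.05, and 1.29% of its 17108 genes with an adjusted p lay under that threshold. The smallest value for a member in the authors' deposited table was 0.493, for ATG13, which was also the only member with an unadjusted p under 0.05 there (p = 0.0492).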

How the data were processed

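RNA from 6 DHCA and 6 sham striata was isolated on RNeasy columns and sequenced as Illumina TruSeq libraries, per the labels' protocols. The deposited counts are raw read counts per gene from featureCounts 1.5.1 and the exons of Sscrofa11.1, per the file headers, with no strand option and no option to count reads that touch several genes. The aligner was not given in the sources used here. Of 18 library columns, 12 match the samples by number and 6 were not used. Gene names and the authors' p-values come from the deposited comparison table, which per the file headers also holds a mean normalized signal, log2 fold changes with standard errors, and a statistic (a score) that were not used. Its tool is DESeq2, per the submitters' processing notes. Names missing there came from a reference table of pig gene IDs.

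Counts were filtered with filterByExpr, normalised by TMM and tested in edgeR 4.0.16 by its quasi-likelihood F test in R 4.3.3, with group as the only term and Benjamini-Hochberg adjustment over 14004 genes. The standard error came from the F statistic, and intervals are at 95%. DESeq2 1.42.0 and limma 3.58.1 were alternatives. The steps were tested on simulated data. Genes were named by rule if they were among the 2 members of each role with the smallest p or the 5 ATG8 genes. The 3 genes of each other list with the smallest p were also named by rule, some of them without CPM values. Other genes named were picked after their values were seen. The members and lists were chosen with earlier results of these data known. The labels describe 6 piglets per group, so p-values measure the spread between animals. One CPM stands for 1.50 counts in Sham 5 and 13.7 in Sham 6. Within a group, every pair of libraries had a chi-square of at least 8.50 per degree of freedom, so none looked deposited more than once.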

Additional observations from a re-analysis of the deposited data

Results flagged for a closer look

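A library stood far from the other 5 of its group in 5 of the 78 sets of 6 values that the 39 members gave, where chance gives about 5%. LAMP2 was at 420 CPM in DHCA 3, against 118 to 214 CPM in the other DHCA libraries (214.5 at the highest), and at 278 CPM in Sham 2, against 89.2 to 136 CPM in the other sham libraries. ATG3 was at 75.3 CPM in DHCA 3, against 26.2 to 36.3 CPM, and GABARAP was at 132.0 CPM there, against 86.4 to 100.3 CPM. OPTN was at 176 CPM in Sham 1, against 67.3 to 91.2 CPM in the other sham libraries.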

How the results depend on the processing

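In each of the 24 alternatives, 0 of the 39 members were called, from 0 to 0 when 1 library was left out, and the smallest adjusted p of any member was 0.351 (ATG5, limma-voom with sample quality weights). At an unadjusted p under 0.05 stood 1 member in that setting, where 12.8% of all tested genes did. Without Sham 2 it was also 1 (LAMP2), where 12.5% of all tested genes lay under that threshold. Members' estimates moved by more than 1 SE in 30 of 936 pairs of member and alternative and changed sign in 87, in 23 members. In TFEB and ATG4D, without Sham 1 and Sham 5, the estimates were 0.003 and 0.18 against -0.58 and -0.55. With Sham 4 left out as well, the estimate was negative for TFEB and 0.14 for ATG4D. The median over members was 0.02 to 0.12 across alternatives. Of the other autophagy and lysosome genes, 2 were called by limma-voom with sample quality weights and 0 elsewhere, also 0 to 0 without 1 library. The count over all genes, 26, was 179 with the DESeq2 Wald test, 207 with limma-voom with sample quality weights, 12 without Sham 1 and Sham 5, 1 without Sham 1, Sham 4 and Sham 5, and 9 to 51 without 1 library. Causes were not tested. With a replicate block by title number it was 8, with 0 members. Same-numbered libraries deviated together with correlations of -0.39 to 0.34, and 1 of 6 DHCA libraries correlated best with its own number, so the numbers were not taken as pairs. Depth limits the genes with few counts, such as ATG4A with 455 and ATG4D with 514 counts over all libraries.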

Other observations

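Ratios between related members were taken per kilobase of annotated exon. The log2 ratio of ULK1 to ULK2 was -1.85 ± 0.34 in DHCA and -2.03 ± 0.33 in sham (SD, n = 6 each), negative in all 12 libraries. MAP1LC3B against MAP1LC3A ranged from -2.52 to -1.13 in DHCA and from -4.31 to -1.11 in sham, and this ratio rests largely on the annotated lengths of 4006 bases for MAP1LC3B and 1079 bases for MAP1LC3A. LAMP2 against LAMP1 ranged from -2.71 to -1.04 in DHCA and from -3.10 to -1.13 in sham. The negative sign here rests on the annotated lengths, 11777 bases for LAMP2 and 2146 bases for LAMP1. Before division by length, LAMP2 averaged 197.4 CPM in DHCA and 143.5 CPM in sham, against 129.7 and 124.9 CPM for LAMP1. In each of these ratios the groups overlapped. Ratios to GABARAP are not given, since PHF23 shares 65.3% of its exon bases.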
